A study of Mus musculus with 8 samples.

Results

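The mRNAs described here encode the heterogeneous nuclear ribonucleoproteins (hnRNPs) and the serine- and arginine-rich (SR) splicing factors. They were chosen by symbol, as every gene whose name reads Hnrnp or Srsf followed by its member letters or number, which gave 31 genes, 20 hnRNP and 11 SR, of the 24639 genes counted. Among them is Hnrnpc, which the study named as a candidate target of the microRNA miR-379. hnRNP genes that carry other names, such as the Pcbp genes, are described only as a comparison list.

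The counts came from primary glomerular mesangial cells (MMC), the contractile pericyte-like cells of the kidney glomerulus, in 8 libraries that form 4 groups of 2 replicates, A and B. WT MMC came from wild-type C57BL/6J mice, and miR-379KO MMC from mice of that strain that were homozygous for a short deletion at miR-379 made with the CRISPR-Cas9 nickase. Both genotypes were grown in RPMI medium with foetal bovine serum and received no treatment. Each genotype was profiled as total RNA and as AGO2-IP, the RNA recovered from UV cross-linked lysates with beads against AGO2, the Argonaute protein that carries microRNAs to target RNAs. The age of the mice and the number of mice behind a culture are not given in the sources used here, the deletion is constitutive, and the cells were studied in culture. The study calls A and B independent samples without naming separate animals, so the p-values below measure only the spread between these samples.

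hnRNPs and SR proteins bind nascent transcripts and decide, largely in opposition to each other, which splice sites are used. SR proteins mostly recruit the splicing machinery to exons, whereas many hnRNPs repress exons, package pre-mRNA, or act later on export, stability and translation. Both families are abundant in nearly every cell type, and many of their genes regulate their own mRNA. hnRNP C binds uridine-rich tracts of nascent RNA. A microRNA pairs mainly through its seed, bases 2 to 8, with sites in the 3′-UTR of a target, and AGO2 that carries it is held at such sites.

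The mature sequence of miR-379-5p is shown first, because its seed sets the sites looked for in the members. In the RefSeq annotation of GRCm38 it lies at chr12:109709065-109709085 on the plus strand, and its seed is in capitals.
mmu-miR-379-5p: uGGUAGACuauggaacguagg

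The members' annotated 3′-UTRs, the longest per gene among curated RefSeq transcripts, were searched on the transcript strand for 4 nested motifs, so that a longer match also counts as the shorter ones it holds. GTCTACC, the complement of bases 2 to 8, was found in 2 of 31 members, Hnrnpd and Srsf6, compared to 4.05% of the 19175 genes with a 3′-UTR. GTCTACCA, which adds an A, was found in 1 member, Hnrnpd, and in 1.08% of genes. TCTACCA was found in Hnrnpd, Srsf6 and Srsf11, and in 7.21% of genes. TCTACC, the shortest form, was found in 5 members, which adds Srsf1 and Srsf3, and in 21.0% of genes. The 3′-UTR of Hnrnpc, 1703 bases long, held none of the 4, and these letters were absent from the whole Hnrnpc transcript too. This says only that these letters are not in these windows. Over the longest coding transcript, GTCTACC was also found in Hnrnpul1, Srsf1 and Srsf12, which had none in the 3′-UTR searched. No share over all genes is given for whole transcripts. The 3′-UTR sites of 7 or 8 bases are shown with 10 bases on each side and the match in capitals.
Hnrnpd, chr5:99958481-99958508, minus strand: ttacccatatGTCTACCAgtacttgggc
Srsf6, chr2:162935358-162935384, plus strand: gtgctgttaaTCTACCAaagtgttttg
Srsf6, chr2:162935374-162935400, plus strand: aaagtgttttGTCTACCcctttaataa
Srsf11, chr3:158011299-158011325, minus strand: atttcacatcTCTACCAgtgaacgcag

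Members had lower GC content and longer 3′-UTRs than genes at large. Their exons held a median of 44.7% GC, compared to 50.03% over 19175 genes, and their 3′-UTRs had a median of 1308 bases compared to 826. Several members also have near-identical copies elsewhere in the genome, and reads that fit more than 1 place were not counted. Of the 50-base windows of the longest coding transcript, 88.3% were found elsewhere for Hnrnpa3, 86.6% for Hnrnpa1, 76.7% for Hnrnpf, 57.5% for Hnrnph2, 51.0% for Hnrnpk and 33.7% for Hnrnpc. The levels of the 11 members with over 10% of such windows are therefore uncertain.

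Total RNA libraries held 17168230 to 22660743 gene counts, and AGO2-IP libraries 5587611 to 17095021. The ribosomal RNA precursor Rn45s and Lars2, the gene of the mitochondrial leucyl-tRNA synthetase, together took 80.0% to 89.0% of the AGO2-IP counts and 4.67% to 9.58% in total RNA, so normalised counts (CPM, counts scaled to library size) are not comparable between the assays. Mir379, the deleted gene, had 0 counts in every total RNA library, 0 and 4 in WT AGO2-IP and 1 and 0 in miR-379KO AGO2-IP, too few to check the labels by. Members received 91257 to 106156 counts per total RNA library and 3398 to 6014 per AGO2-IP library. Without Rn45s and Lars2 they made up 0.497% to 0.616% of total RNA counts and 0.288% to 0.351% of AGO2-IP counts. Reads outside annotated genes were 23.4% and 26.6% of listed reads in WT AGO2-IP, compared to 33.5% and 35.9% in miR-379KO AGO2-IP. Markers of mesangial cells and pericytes (10 genes, Acta2, Tagln and Vim the highest) summed to 16978 and 22158 CPM in WT total RNA and to 24697 and 25274 in miR-379KO. Pdgfrb, Cspg4, Cnn1 and Des ran from 70.1 to 834 CPM in total RNA, and Des differed between WT A (107) and WT B (790). Gata3, Itga8 and Thy1 were low, at most 3.76 CPM in any total RNA library. The 6 endothelial markers summed to 0.383 and 0.537 CPM in WT and to 0.0587 and 2.17 in miR-379KO, and the 6 leukocyte markers to at most 5.14 CPM. The 6 podocyte markers summed to 244 to 634 CPM in WT and 329 to 574 in miR-379KO, most of it from Synpo, and the 7 tubular markers to 12.5 to 37.7 CPM in WT and 22.5 to 48.6 in miR-379KO, mostly from Lrp2, Aqp1 and Cubn. In bulk RNA, fewer cells of a type and less RNA per cell cannot be told apart.

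All members but Srsf12 were well counted in total RNA of MMC, and their levels per kb of exon spanned a wide range. The highest was Hnrnpk, which encodes a poly(C)-binding hnRNP, at 218 and 211 normalised CPM per kb in WT A and B (214 ± 4.58, SD, n = 2). Next came Hnrnpab, a CArG-box and RNA-binding hnRNP, at 185 and 181 CPM per kb, and Hnrnpl, which binds CA repeats, at 130 and 153 CPM per kb. The replicates of Hnrnpk and of Hnrnpab did not overlap with those of the gene next in order, whereas Hnrnpl and the fourth gene, Hnrnpa2b1 (163 and 116 CPM per kb), did overlap.

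At the other end stood Hnrnph3 at 8.34 and 5.41 CPM per kb, Hnrnpa1 at 3.68 and 3.72 and Srsf12 at 0 and 0.0347. Hnrnpa1 encodes one of the most abundant hnRNP proteins in most cells, and it is the member with the second largest share of non-unique windows. Srsf12, an SR-like gene, was counted 0 times in WT A, 2 times in WT B, 3 times in miR-379KO A and 0 times in miR-379KO B, at or below a floor of 3 counts in each. Hnrnpc ranked 11th of 31 at 50.8 and 72.7 CPM per kb in WT A and B (61.7 ± 15.5, SD, n = 2), with replicates that overlapped those of both neighbours, Hnrnpm and Hnrnpu. With the longest transcript in place of all exons it ranked 12th.

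**Figure D1:**
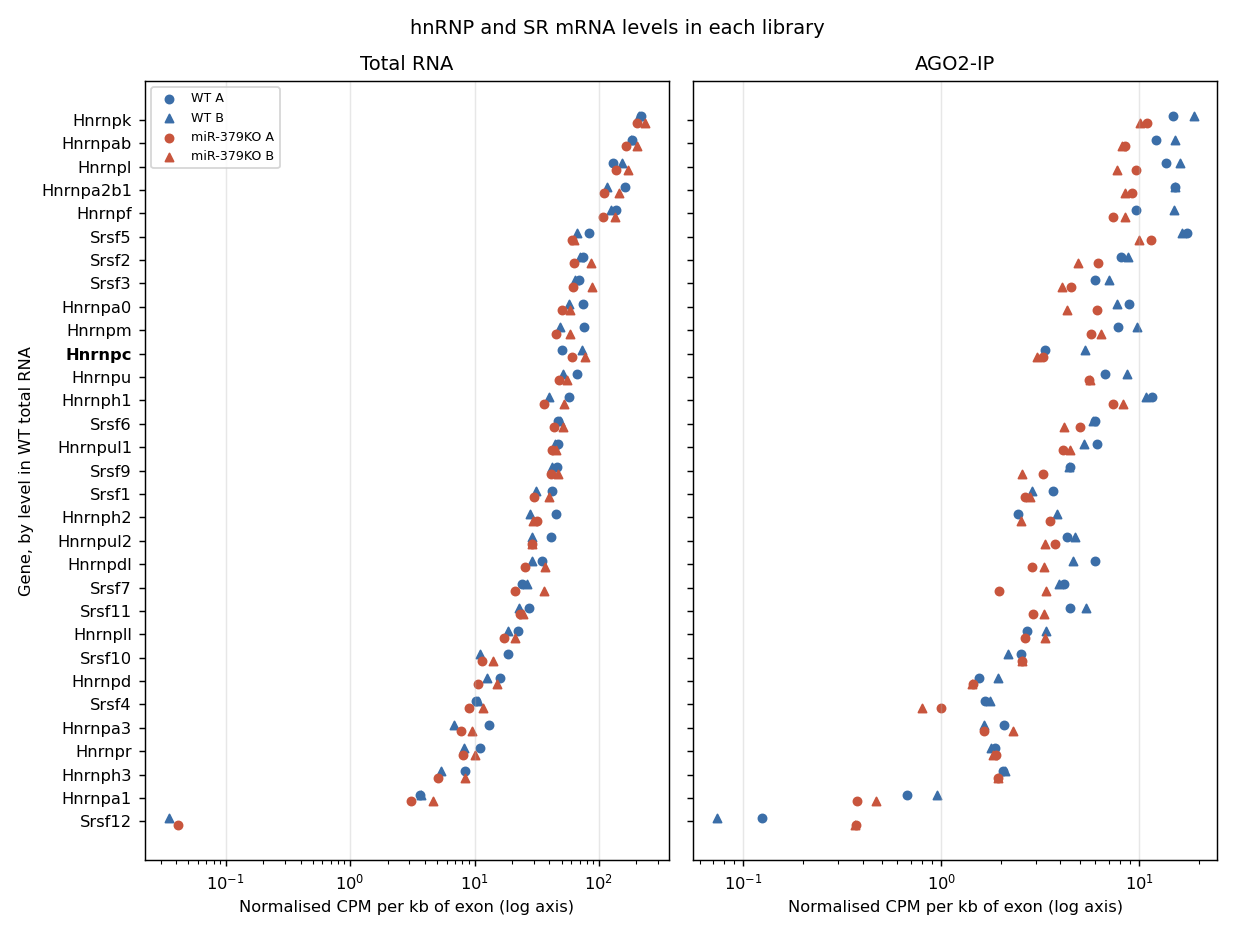
Normalised CPM per kb of exon (log axes) of each hnRNP and SR gene in each library, total RNA on the left and AGO2-IP on the right, ordered by the mean level in WT total RNA, with WT in blue, miR-379KO in red, circles for A and triangles for B. In total RNA the colours overlap for 29 of the 30 genes tested, whereas in AGO2-IP the miR-379KO points lie below the WT points for 25 of 31, and values of 0 (Srsf12) are not drawn.

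No change in the total RNA level of a member was detected between miR-379KO and WT MMC. By edgeR's quasi-likelihood test with Benjamini-Hochberg adjustment, none of the 30 members tested passed an adjusted p of 0.05, none had an unadjusted p under 0.05, and DESeq2 also called none. Background was 0.0% of 12321 genes at the adjusted threshold, with 91 genes at an unadjusted p under 0.05. Small p-values were rare over all genes, so their absence among the members does not show equal levels. At the study's own cutoff, 1.5-fold with an unadjusted p under 0.05, 0.682% of genes and no member passed. The members' log2 fold changes, miR-379KO against WT, ranged from −0.28 to 0.19 with a median of −0.07, compared to −0.01 over all genes tested, and 22 were negative. Without miR-379KO B all 30 were negative (median −0.26), and without miR-379KO A 22 of 30 were positive (median 0.11), so the sign of the median rested on single libraries.

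Normalised CPM of Hnrnpc were 205 (A) and 293 (B) in WT, compared to 246 (A) and 311 (B) in miR-379KO. The lowest and the second highest of these values were from WT, and the groups overlapped. Its log2 fold change in total RNA was 0.16 ± 0.27 (SE), with an adjusted p of 0.9997 by edgeR, and it was the second highest of the 30 members tested. Without WT A it was −0.07, and without miR-379KO B it was −0.01.

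The members nearest to the threshold in total RNA, 3 per direction, did not pass either. On the positive side, beside Hnrnpc, were Srsf7 (0.19 ± 0.30) and Srsf3 (0.15 ± 0.25), genes of SR proteins that also help export mRNA. On the negative side were Srsf5 (−0.27 ± 0.21), Hnrnpa0 (−0.28 ± 0.23), an AU-rich element-binding hnRNP, and Hnrnpul2 (−0.28 ± 0.25), a relative of the scaffold protein hnRNP U. Srsf5, an SR gene that responds to insulin and growth signals, was the one member whose groups did not overlap, with 138 and 111 normalised CPM in WT and 101 and 105 in miR-379KO. Groups did not overlap on the lower side for 9.07% of the 12321 genes and on the higher side for 9.89%.

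In AGO2-IP, most members were lower in miR-379KO MMC than in WT MMC. Of 31 members tested, 11 fell at an adjusted p under 0.05 by edgeR, which is 35.5%, compared to 9.52% of 13505 genes, and 1, Srsf12, was called higher, compared to 21.4% of genes. Srsf12 passed the low-count filter only through the miR-379KO libraries, where it was higher, so its direction was partly set by the filter and its call is no support for a rise. At the study's cutoff 14 members fell, compared to 13.3% of genes. The members' median log2 fold change was −0.53, compared to −0.01 over all genes tested, and 27 of 31 were negative. Replicates of the groups did not overlap on the lower side for 25 members (80.6%, compared to 32.2% of genes) and on the higher side for 2 (compared to 36.1%).

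Much of that distance from the background moved with expression level. For genes averaging over 1000 total RNA counts (3651 genes), 26.4% were called lower in AGO2-IP, 0.192% were called higher, the median log2 fold change was −0.45, and 69.7% lay lower without overlap. Of the 26 members at that level, 10 were called lower, with a median of −0.57, and 22 (84.6%) lay lower without overlap. For the 5951 genes between 100 and 1000 counts, 5.14% were called lower with a median of −0.08, and 1 of the 4 members at that level was called. The families were not tested against genes of their own level.

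In the hnRNP A/B and D group, proteins that coat nascent RNA or bind AU-rich mRNAs, 4 of 7 members were called lower in AGO2-IP. That compared to 9.52% of all genes and 26.4% of those with over 1000 total RNA counts. Of the 7 estimates 6 were negative, and the median log2 fold change was −0.71. The groups are too small to rank by their calls. Hnrnpa2b1, whose protein also reads N6-methyladenosine and sorts RNAs, had 37.1 and 36.8 normalised CPM in WT AGO2-IP and 22.4 and 20.7 in miR-379KO. Both miR-379KO values were below both WT values, and the gene fell by 0.78 ± 0.23 (SE) on the log2 scale (adjusted p = 0.0130, edgeR). It was called in 10 of 15 alternative settings, more than any other member. Hnrnpdl, a relative of hnRNP D, had 17.1 and 13.3 CPM in WT and 8.21 and 9.45 in miR-379KO, a log2 fold change of −0.79 ± 0.23 (adjusted p = 0.0141, edgeR). Hnrnpab (−0.71) and Hnrnpa0 (−0.68) were the other called genes of the group. Hnrnpa1 had the lowest estimate of the group, −0.93 ± 0.47, but on 15, 18, 7 and 8 reads, and did not pass (adjusted p = 0.134, edgeR).

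In the hnRNP K, L, M and R group 2 of 5 members were called lower, compared to the 9.52% and 26.4% of genes given above. Hnrnpl had 29.4 and 34.3 CPM in WT AGO2-IP and 20.6 and 16.6 in miR-379KO, without overlap (log2 fold change −0.77 ± 0.23, adjusted p = 0.0143, edgeR). Hnrnpk fell by 0.67 on the log2 scale, whereas Hnrnpll, a paralogue of Hnrnpl known from alternative splicing in lymphocytes, had a value of −0.03 and Hnrnpr, known from mRNA transport in axons, 0.02. None of the 4 genes of the hnRNP F/H group, which bind G-rich tracts, passed the test (median −0.31), though Hnrnpf came near it (−0.64, adjusted p = 0.0505, edgeR). None of the 3 hnRNP U genes passed (median −0.41).

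Among the 8 SR protein genes 4 were called lower in AGO2-IP, compared to the 9.52% and 26.4% of genes given above. All 8 estimates were negative and the median log2 fold change was −0.60. Srsf4 had 5.88 and 6.24 normalised CPM in WT AGO2-IP and 3.52 and 2.81 in miR-379KO. Its miR-379KO values were both below the WT values, and its log2 fold change of −0.93 ± 0.29 (adjusted p = 0.0191, edgeR) was the lowest of the called members. In total RNA its value was −0.01 ± 0.23. The others called were Srsf5 (−0.66), Srsf2 (−0.61), which encodes the speckle protein SC35, and Srsf3 (−0.60), whereas Srsf1, the gene of the founding SR protein SF2/ASF, had a value of −0.26 and Srsf6 −0.36.

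The 3 SR-like genes went different ways. Srsf11 fell by 0.67 on the log2 scale, Srsf10, which encodes a splicing repressor that responds to heat shock, had a value of 0.12 ± 0.22 (adjusted p = 0.704, edgeR), and Srsf12, tested only because of its reads in miR-379KO, was called higher. It had 4 and 2 reads in WT AGO2-IP and 10 and 9 in miR-379KO, so that its summed reads per effective library were 3.65 times as many (95% exact interval 1.40 to 11.2, counting error only). Its adjusted p was 0.0141 by edgeR, and the call was lost when any 1 of the 4 AGO2-IP libraries was left out. Of the 1558 genes that averaged up to 10 total RNA counts, 74.8% were called higher in AGO2-IP. Reads outside annotated genes were also a larger share of the miR-379KO AGO2-IP libraries, and their part in the Srsf12 count was not tested. Beside Srsf12 and Srsf10, the positive estimates were Hnrnpa3 (0.08 ± 0.24) and Hnrnpr.

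**Figure D2:**
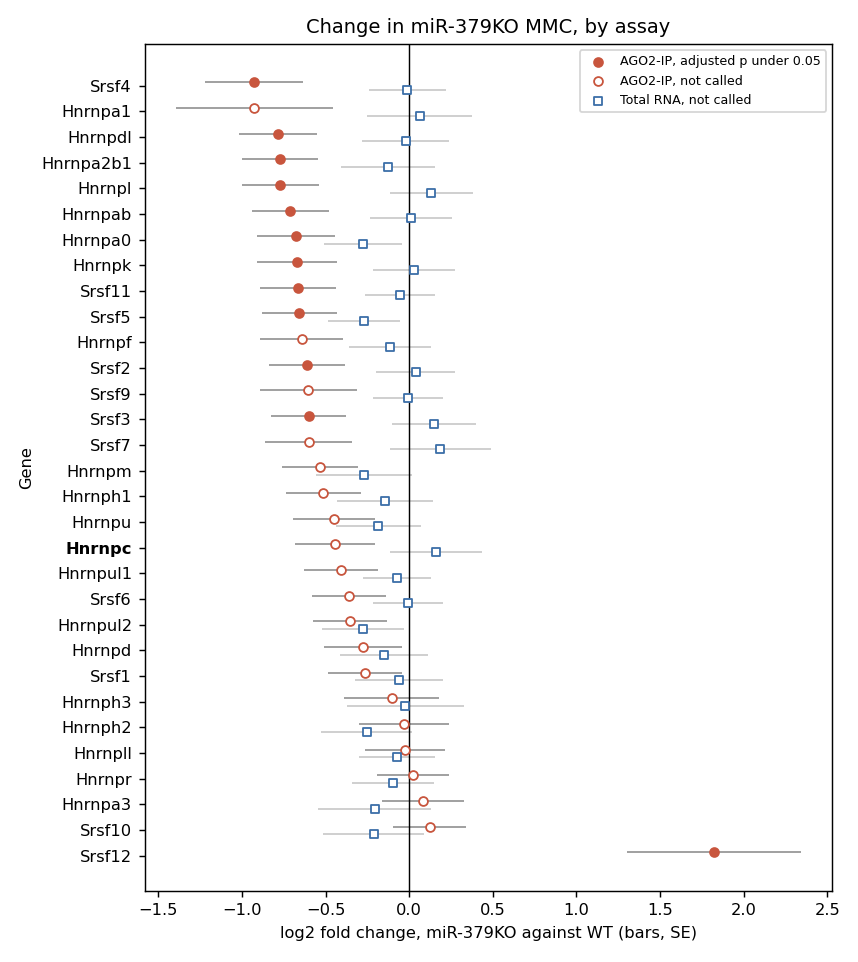
Log2 fold changes of each hnRNP and SR gene, miR-379KO against WT, with SE as bars (2 replicates a group), in AGO2-IP (red circles, filled where the adjusted p was under 0.05) and total RNA (blue squares). The AGO2-IP estimates of 27 of 31 genes lie left of 0 while the total RNA estimates lie between −0.28 and 0.19, and Hnrnpc is 19th from the lowest in AGO2-IP.

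Hnrnpc lay near the middle of its family in AGO2-IP. The study named it from AGO2-IP reads at a predicted miR-379 site relative to the rest of its 3′-UTR. Its qPCR of AGO2-IP RNA also found Hnrnpc lower in miR-379KO. The Hnrnpc reads given next cover the whole gene and do not measure that local enrichment. WT A gave 138 reads and WT B 185, compared to 113 in miR-379KO A and 96 in miR-379KO B, which were 13.5 and 21.4 normalised CPM in WT and 13.3 and 12.3 in miR-379KO. Both miR-379KO values were below both WT values, but WT A was nearer to the miR-379KO values than to WT B. The log2 fold change was −0.45 ± 0.24 (SE), with an adjusted p of 0.157 by edgeR, 19th from the lowest of 31 and 0.12 above the median of the other members. Without WT A the change was −0.81 and was called (adjusted p = 0.0258, edgeR), and without WT B it was −0.13.

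The share of Hnrnpc among all reads on the 31 genes compares it with its family inside each library, free of scaling between libraries. In total RNA it took 3.59% (95% Wilson interval 3.48 to 3.71) in WT A and 5.88% (5.72 to 6.03) in WT B, compared to 5.33% (5.20 to 5.47) in miR-379KO A and 5.47% (5.33 to 5.62) in miR-379KO B. In AGO2-IP it took 2.29% (1.95 to 2.70) in WT A and 3.28% (2.85 to 3.78) in WT B, compared to 2.99% (2.50 to 3.59) and 2.83% (2.32 to 3.44) in miR-379KO A and B. These intervals cover counting error only. Both miR-379KO values lay between the WT values in each assay, WT A was the lowest library of its assay both times, and the group means were 4.73% ± 1.61 and 5.40% ± 0.0980 (SD, n = 2) in total RNA and 2.79% ± 0.698 and 2.91% ± 0.120 in AGO2-IP. Against hnRNP reads alone, AGO2-IP shares were 3.71% ± 0.833 in WT and 3.91% ± 0.184 in miR-379KO.

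**Figure D3:**
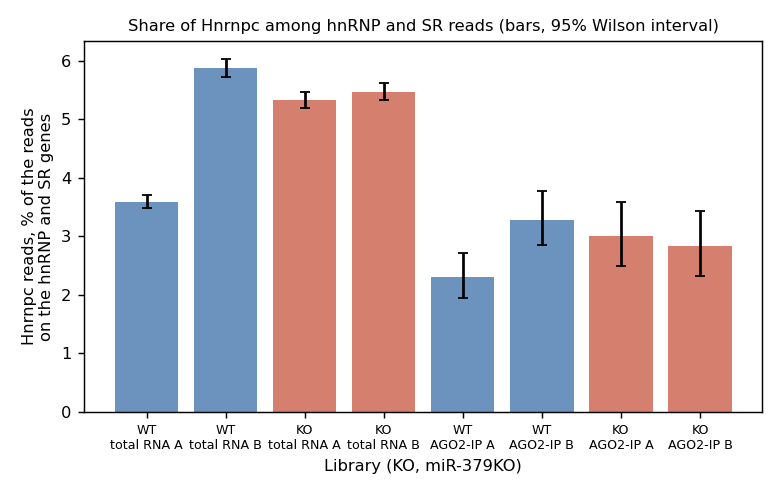
Reads on Hnrnpc as a percent of the reads on all 31 hnRNP and SR genes in each library, WT in blue and miR-379KO (KO) in red, with 95% Wilson intervals as error bars. In both assays the 2 miR-379KO libraries sit between WT A, the lowest, and WT B, and all AGO2-IP shares are below all total RNA shares.

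The interaction, the AGO2-IP change less the total RNA change in 1 fit of all 8 libraries, called no member and 0.0% of 17429 genes at an adjusted p under 0.05 by edgeR. At an unadjusted p under 0.05 there were 2733 genes and 11 members, while DESeq2 called no member and had 3 at an unadjusted p under 0.05. The same 11 members passed the study's cutoff, all on the lower side, compared to 10.9% of genes. The members' median was −0.61, compared to 0.01 for all genes and −0.68 for the 3653 genes with over 1000 total RNA counts.

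The smallest p-values of the interaction belonged to Srsf4 (−1.13 ± 0.38, adjusted p = 0.244, edgeR), Hnrnpl (−1.10 ± 0.39) and Hnrnpdl (−0.98 ± 0.36). Hnrnpc stood 13th from the lowest at −0.80 ± 0.43 (adjusted p = 0.369, edgeR). Its value went from −0.17 without WT AGO2-IP B to −1.23 without WT total RNA B. The positive estimates were Srsf12 (1.35 ± 1.82), on counts at the floor in total RNA, Srsf10 (0.10 ± 0.35) and Hnrnpa3 (0.05 ± 0.40), none of which passed.

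Hnrnpc was the member least recovered with AGO2 in WT MMC, relative to its total RNA. In WT MMC its AGO2-IP level relative to total RNA was −1.36 ± 0.30 on the log2 scale (adjusted p = 0.00136, edgeR), the lowest of 31 members, compared to a median of −0.44 over the others, −0.45 over genes with over 1000 total RNA counts and 0.49 over all genes. In miR-379KO MMC it was −2.16 ± 0.31, second after Hnrnpab (−2.18), compared to a median of −1.05 over the others. In WT it was the lowest member under each scaling and filter tried. It ranked 3rd without WT AGO2-IP A and 5th without WT total RNA B, where its value of −0.99 was no longer a 2-fold difference. Both comparisons share one fit, and the miR-379KO values include the AGO2-IP shift of the well-expressed genes given above.

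At an adjusted p under 0.05 and a 2-fold difference, 4 members (12.9%) were lower in AGO2-IP than in total RNA of WT MMC. That compared to 7.33% of genes and 21.7% of those with over 1000 total RNA counts. Higher was 1 member, compared to 35.7% of genes and 3.75% of those with over 1000 total RNA counts. The others lower were Hnrnpab (−1.25 ± 0.27), Hnrnpk (−1.18 ± 0.28) and Hnrnph2 (−1.03 ± 0.28). In miR-379KO MMC 17 members (54.8%) were lower, compared to 19.3% of genes and 53.8% of those with over 1000 total RNA counts. There 1 was higher, compared to 41.6% of genes and 1.67% of those with over 1000 total RNA counts. The higher member was Srsf12 both times, which had at most 3 counts in any total RNA library, so no fold is given. Genes with no total RNA counts could pass the low-count filter only through AGO2-IP. Of these, 97.3% were called higher in WT and 100% in miR-379KO. The 35.7% and 41.6%, and the Srsf12 calls, were therefore partly set by the filter. Libraries of the assays were prepared by different protocols, so assay and protocol cannot be told apart.

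The members with a miR-379 seed match of 7 or 8 bases in the 3′-UTR had negative AGO2-IP estimates, as did 27 of all 31 members. Of the 3 with a match, 1 was called lower, compared to 11 of all 31. The estimates of Hnrnpd and Srsf6 lay above the median of all members, −0.53. Hnrnpd, whose protein AUF1 promotes decay of AU-rich mRNAs and which holds the 8-base site shown above, had 10.6 and 13.2 normalised CPM in WT AGO2-IP and 9.86 and 9.71 in miR-379KO. Its log2 fold change was −0.28 ± 0.23 in AGO2-IP (adjusted p = 0.376, edgeR) and −0.15 ± 0.26 in total RNA. Srsf6, with a pair of sites, had −0.36 ± 0.22 in AGO2-IP and −0.01 ± 0.21 in total RNA. Srsf11, with a 7-base site, was called lower in AGO2-IP as given above and had −0.06 ± 0.21 in total RNA. The one called in AGO2-IP did not hold GTCTACC, and none of the 3 passed the test in total RNA.

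GC content moved with the AGO2-IP change. Across the 30 members tested in both assays, the AGO2-IP log2 fold change and exon GC content had Pearson's r = −0.56 and Spearman's rho = −0.59, while in total RNA r was −0.04. The genes share their libraries and are not independent, so this is a description without a test. Across 3650 genes with over 1000 total RNA counts r was −0.52. Longer 3′-UTRs went with higher values, with r = 0.53 across the members and 0.29 across 3643 genes. Called members were found among genes with unique sequence and among those with copies, as 8 of 20 members with at most 10% of windows elsewhere were called lower (median −0.57) and 3 of 11 of the others (median −0.51). Fitting an offset for GC and exon length took the AGO2-IP change of Hnrnpc, at 40.9% GC, to −1.24 (adjusted p = 0.00124, edgeR), 6th from the lowest, and the number of members called lower to 19. With that offset the median of members was −0.84 and that of all genes −0.10. The share of all genes called with the offset is not given, so the 19 is not read as a result about the members.

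The AGO2-IP calls also depended on scaling, filter and single libraries, more than their direction did. With TMM factors set on the genes counted in total RNA, the median of all genes rose to 0.23 and that of members to −0.28, and no member was called lower, though the members lay 0.52 below all genes under both scalings. With at least a mean of 50 counts, no member was called and the median was −0.147 over 26 members, compared to −0.002 over all genes. The members then lay only 0.145 below all genes. DESeq2 called none, with 12 at an unadjusted p under 0.05. Shares of all genes called in these settings are not given, so the counts called are not read as results about the members. The members' median was −0.66 without WT A, −0.50 without WT B, −0.57 without miR-379KO A and −0.48 without miR-379KO B. Median changes stayed negative in these settings, and Hnrnpc lay above the members' median in all but those with the GC offset, without WT A and without miR-379KO A.

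**Figure D4:**
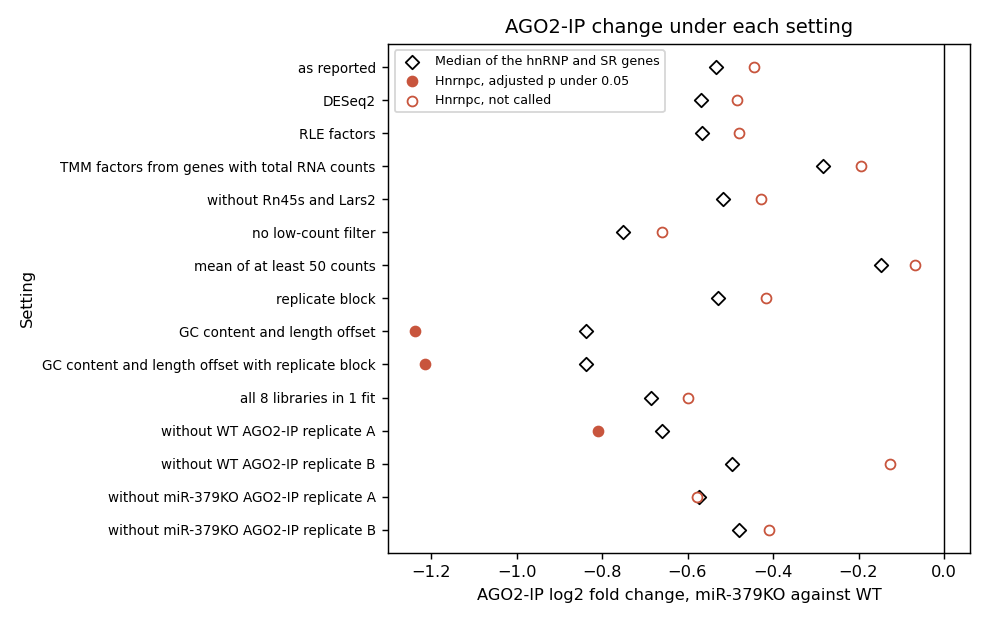
AGO2-IP log2 fold change, miR-379KO against WT, of Hnrnpc (circles, filled where the adjusted p was under 0.05) and the median of the hnRNP and SR genes (diamonds) under each setting, with the reported fit in the top line. All values lie left of 0, Hnrnpc is called in 3 settings, and its value runs from −1.24 to −0.07.

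Other splicing factors were read against the same background, in which 9.52% of all genes and 26.4% of those with over 1000 total RNA counts were called lower. Of 20 genes tested for hnRNP proteins under other names, 8 were called lower in AGO2-IP and none higher (median −0.47), among them the poly(C)-binding genes Pcbp1 (−0.82), Pcbp2 (−0.71) and Pcbp4 (−1.23), the RNA-binding genes Ewsr1 (−0.74) and Taf15 (−0.91), and Raly (−0.61), a close relative of hnRNP C. Of 20 SR partners and SR kinases, 5 were called lower, with Srrm1 at −0.94, a share near the 26.4% of genes with over 1000 total RNA counts. Of 35 core snRNP and branch point factors, 4 were, with Snrpb at −0.92. That share lay near the 9.52% of all genes and below the 26.4%. Of 26 other splicing regulators, a list of tissue-restricted and widely expressed genes, 6 were called higher and none lower. Among the 6 were the neuronal genes Rbfox3 (2.73) and Nova1 (1.53), and the share was near the 21.4% of all genes called higher. Whether the 6 passed the low-count filter only through the miR-379KO libraries is not shown, so their calls are no support for a rise. Of genes with no total RNA counts 88.4% were called higher, and 74.8% of those averaging up to 10. Only 22 genes of this list had enough counts to be tested in total RNA. In total RNA no gene of these lists was called by edgeR and none had an unadjusted p under 0.05, with medians from −0.14 to 0.12. Of the marker lists in AGO2-IP, 9 mesangial and pericyte genes were tested, with 4 called lower and 1, Itga8, higher (1.29). Called higher were 1 of 5 podocyte, 1 of 2 endothelial, 1 of 4 leukocyte and 4 of 4 tubular genes tested, and none of these lists had a call lower. The called podocyte (Nphs1), endothelial (Kdr) and leukocyte (Ptprc) genes, Itga8, and the tubular genes Epcam and Cdh1 could pass the low-count filter only with the miR-379KO libraries. Their direction was partly set by the filter, so these calls are no support for a rise. The part of these markers in the members' changes was not tested.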

How the data were processed

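Total RNA was prepared with a kit that keeps strand and selects poly(A) RNA, and AGO2-IP RNA by adapter ligation with no selection on size. In the authors' hands, reads went through TopHat onto mm10 and were assigned to RefSeq genes by htseq-count with its reverse strand setting (HTSeq 0.6.0 in the submitters' processing notes). The values the authors deposited were raw gene counts, 1 list per library. Reads outside genes, ambiguous or not unique were kept out of library sizes and tests.

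Counts were tested in edgeR 4.0.16 (TMM, filterByExpr with a minimum count of 10, quasi-likelihood F test, Benjamini-Hochberg adjustment over all genes tested), on 4 libraries per assay for genotype and on 8 for the other comparisons. Normalised CPM used TMM factors within each assay. Of 24639 symbols, 23624 matched RefSeq GRCm38.p6 by symbol and 731 by synonym.

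The members and lists were chosen with earlier results of these data known. Named were Hnrnpc, members called (at most 12 per comparison), the 3 smallest p-values per direction, the 3 highest and 3 lowest levels per kb, and members at the floor. Other members named by role were chosen after their values were seen. Likeness of other genes to Hnrnpc is not given, because the libraries fall into 2 assays. Letters A and B were checked as pairs (correlation of deviations −0.11 between genotypes in total RNA and 0.04 in AGO2-IP, and 0.22 in WT and 0.17 in miR-379KO between the assays). Alternatives were DESeq2 1.42.0, other scalings and filters, a GC and length offset, a replicate block, all 8 libraries in 1 fit and omission of each library.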

Additional observations from a re-analysis of the deposited data

How the results depend on the processing

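In total RNA no alternative called a member, crossed letters (chosen after seeing the data) and the replicate block included, with which Hnrnpc was 0.17. Leaving out 1 library let values reverse and run from −0.072 to 0.44 for Hnrnpc, −0.51 to 0.00463 for Hnrnpul2, −0.12 to 0.40 for Srsf3 and −0.26 to 0.55 for Srsf7. In AGO2-IP the 12 calls became 0 with DESeq2, under a minimum mean of 50 counts and with all 8 libraries in 1 fit (12, 3 and 20 members at an unadjusted p under 0.05), 1 with TMM set on genes counted in total RNA, 19 with the GC and length offset, 19 with that offset and the block, and 1 to 11 without 1 replicate. Shares of all genes called in the alternative settings are not given. Counts of members called in them are therefore not read as results about the members. With the replicate block alone 9 members were called. Same-letter samples deviated together between the assays (correlations 0.22 and 0.17) but not between genotypes, and the labels do not say whether a letter marks a shared culture, so this fit is not read as a weaker effect. In the interaction the block called 0 members. The members' median of −0.53 moved to −0.28 with that TMM, −0.75 without a filter, −0.15 with at least 50 counts, −0.84 and −0.84 with the offset without and with the block, −0.68 with all 8 libraries, and −0.66 to −0.48 without 1 replicate. Hnrnpc was called with the offset (−1.24), with the offset and block (−1.21) and without WT A, and ran from −0.81 to −0.13 without 1 replicate. The small positive AGO2-IP values of Hnrnpa3 and Srsf10 reversed without a filter (−0.13 and −0.088), with the offset (−0.74 and −1.05), with offset and block (−0.74 and −1.05) and with all 8 libraries (−0.065 and −0.025), and without 1 replicate ran from −0.20 to 0.24 and from −0.026 to 0.17.

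In the interaction, members called rose from 0 to 15 with the offset and 19 with offset and block, 11 passed the study's cutoff, and 0 to 2 were called without 1 replicate. The members' median of −0.61 went to −0.18 with TMM set on total RNA genes, −0.20 with at least 50 counts, −1.22 with the offset and −1.22 with offset and block. The median of all genes moved with the offset too, from 0.01 to −0.36. The offset called Hnrnpc (−1.83, and −1.82 with the block). Hnrnpa3 and Srsf10 reversed without a filter (−0.060 and −0.00601), with the offset (−1.003 and −1.22), with offset and block (−1.003 and −1.22) and without 1 total RNA replicate (−0.37 to 0.54 and −0.22 to 0.43 over the replicates left out), and Srsf12 without WT total RNA B (−1.02 to 3.97). Members called between AGO2-IP and total RNA in WT, 5 as reported, were 13 at the study's cutoff, 3 with at least 50 counts, 25 with the offset, 25 with offset and block, and 3 to 12 without 1 replicate, where Hnrnpc ran from −2.03 to −0.99. In miR-379KO, 18 as reported became 10 with that TMM, 8 with at least 50 counts, 31 with the offset and 31 with offset and block. All-gene medians went from 0.49 to −0.38 in WT and from 0.47 to −0.72 in miR-379KO with the offset. Shares of all genes called in these settings are not given beyond those above. Counts of members called in them, the offset included, are therefore not read as results about the members. Why these settings differ was not tested, except that a higher count minimum tests fewer genes. Where a replicate was left out, the lone sample was assumed to vary like the other libraries. AGO2-IP depth on the members limits precision, as Hnrnpa1 had 7 to 18 reads and Hnrnpc 96 to 185.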
